A study of Mus musculus with 12 samples.

Results

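The genes described here are 10 genes of fibroblast growth factor (FGF) signaling, taken by name from the 45859 genes in the deposited tables: the ligand genes Fgf1 and Fgf2, the receptor genes Fgfr1, Fgfr2 and Fgfr3, the feedback inhibitor genes Spry1, Spry2, Spry4 and Dusp6, and Etv5, a transcription factor gene. All 10 were found by symbol, each in 1 row. RNA came from the lens capsule and the lens epithelial cells (LCs) that stay attached to it after the fiber cells of a mouse lens are removed, a model of cataract surgery, and was harvested at 0 h or 24 h post cataract surgery (PCS). There were 12 libraries, 3 in each of 4 groups, all from mice 2 months old: wild type (WT) LCs of strain C57BL/6 at 0 h and at 24 h, and LCs of β8 integrin conditional knockout (β8ITGcKO) mice at 0 h and at 24 h. In β8ITGcKO mice a floxed allele of Itgb8, the gene for the β8 integrin subunit, is deleted by the MLR10-Cre transgene, which acts in the lens. Their strain is given as a mix of C57BL/6 and 129S1/Sv, so strain, Cre and loss of Itgb8 cannot be told apart in any difference between genotypes, and no source used here names a Cre-only control. Capsules were pooled within a library. The comparisons ask how the FGF genes differ between 0 h and 24 h PCS in each genotype, and whether the genotypes differ at either time or in the change over time.

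FGF ligands bind receptor tyrosine kinases on the cell surface together with heparan sulfate chains, and the receptors signal through Ras and the kinase ERK. ERK signaling switches on genes for its own inhibitors, among them the Sprouty proteins and the phosphatase DUSP6, and genes for ETS transcription factors such as ETV4 and ETV5. In the lens, FGF is known to act on epithelial cells to support survival and division and, at higher doses, to drive their differentiation into fiber cells. These files give RNA levels per gene, so neither receptor protein, nor ERK phosphorylation, nor the receptor splice forms that decide which ligands are bound can be read from them.

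The promoters of Spry1, Spry2 and Dusp6 are shown because these genes rose together in WT LCs while Spry1 did not pass the test in β8ITGcKO LCs. Each sequence is the 250 bases before the start of the gene in RefSeq's annotation of GRCm38.p6, 5′ to 3′ on the gene's own strand, in lower case. Capitals mark GGAA or its reverse complement TTCC, the short core shared by binding sites of ETS factors.
Spry1, chr3:37639697-37639946, + strand: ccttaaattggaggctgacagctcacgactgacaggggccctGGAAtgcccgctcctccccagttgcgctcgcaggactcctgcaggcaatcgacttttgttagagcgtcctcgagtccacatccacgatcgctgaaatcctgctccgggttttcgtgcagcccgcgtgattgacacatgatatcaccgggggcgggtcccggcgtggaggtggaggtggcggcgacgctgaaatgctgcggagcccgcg
Spry2, chr14:105896820-105897069, - strand: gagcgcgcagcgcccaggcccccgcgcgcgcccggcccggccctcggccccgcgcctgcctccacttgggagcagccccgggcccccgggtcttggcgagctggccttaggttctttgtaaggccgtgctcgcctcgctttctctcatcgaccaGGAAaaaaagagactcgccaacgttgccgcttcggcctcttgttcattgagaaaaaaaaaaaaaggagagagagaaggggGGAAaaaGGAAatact
Dusp6, chr10:99262981-99263230, + strand: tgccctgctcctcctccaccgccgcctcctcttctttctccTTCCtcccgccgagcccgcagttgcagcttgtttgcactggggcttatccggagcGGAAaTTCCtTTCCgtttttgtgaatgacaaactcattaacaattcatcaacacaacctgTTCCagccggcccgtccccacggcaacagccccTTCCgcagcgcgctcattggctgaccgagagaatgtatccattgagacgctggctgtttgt
The RefSeq promoter table held 9 promoters for 7 of the 10 genes (Fgf2, Fgfr2, Spry1, Spry2, Dusp6, and a pair each for Fgfr3 and Etv5). None of the 9 held a longer ETS core (CCGGAA), an AP-1 motif (TGANTCA) or a cyclic AMP response element core (TGACGT) on either strand in these 250 bases, against 12%, 6.75% and 6.47% of all 32851 promoters of the same length. When the 50 bases after the start were included, 1 of the 9, that of Spry2, held CCGGAA, against 14.9% of all promoters. The short core GGAA, searched after the longer motifs, stood once in the Spry1 window, 3 times in the Spry2 window and 6 times in the Dusp6 window, and 93.4% of all promoters held it at least once, with a median of 3. These are letter matches in a short window and say nothing of whether a factor binds there.

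Libraries had summed FPKM (fragments per kilobase of transcript, scaled to the mapped fragments of the library) of 446531 to 740140, of which the 10 highest genes took 36.0% to 49.6%, and relative depths of 0.87 to 1.08. All 11 markers of lens epithelium had a mean of at least 1 FPKM in every group, but their summed FPKM moved with the groups. It was 1798 to 1828 in WT and 1905 to 2752 in β8ITGcKO libraries at 0 h, and 1154 to 1372 and 873 to 1050 at 24 h. Not all of them fell, and Pdpn was higher at 24 h in both genotypes (log2 changes 1.48 and 0.68). Cdh1 was higher at 24 h in WT (0.44, limma adjusted p = 0.0474) and lower in β8ITGcKO (-1.15, limma adjusted p = 0.000119). Between genotypes, Foxe3 and Cdh1 passed as higher in β8ITGcKO at 0 h (log2 differences 0.89 and 0.68). At 24 h Cdh1 and Pdpn passed as lower in β8ITGcKO (-0.92 for each), and the other markers of this list did not pass at either time. Itgb8 had 4.58 to 7.31 FPKM in β8ITGcKO and 7.26 to 10.78 FPKM in WT libraries at 0 h, and 9.28 to 11.83 against 8.38 to 9.58 FPKM at 24 h. Its FPKM covers the whole gene, with exons outside the floxed part, so it does not check the deletion. Markers of other cells moved with the groups too. The summed FPKM of 18 fiber cell markers was 13005 to 18082 in WT and 18064 to 19045 in β8ITGcKO libraries at 0 h, and 2240 to 4646 and 2520 to 2835 at 24 h. The summed FPKM of 19 retinal markers was 281 to 556 in the WT 0 h libraries 1 and 3 but 1626 in replicate 2, 251 to 474 at 24 h in WT, 280 to 516 in β8ITGcKO at 0 h and 1178 to 1460 in β8ITGcKO at 24 h. All 19 had a mean of at least 1 FPKM in WT at 0 h and in both β8ITGcKO groups, and 17 in WT at 24 h. For 9 corneal epithelium markers the sums were 215 to 274 in WT and 540 to 922 in β8ITGcKO libraries at 0 h, and 157 to 455 and 141 to 193 at 24 h, with at most 4.62 FPKM of the defining keratin Krt12 in any library. Neutrophil markers, of which 12 were listed, summed to at most 1.54 FPKM in any 0 h library. At 24 h they summed to 45.6 to 65.1 FPKM in WT and 12.4 to 35.3 FPKM in β8ITGcKO libraries. Of the 12 markers, 5 in WT and 4 in β8ITGcKO had a mean of at least 1 FPKM at 24 h. S100a8, S100a9, Csf3r and Cxcr2 passed as higher at 24 h in both genotypes, while Ly6g, Mpo and Elane were at 0 in all 12 libraries. The 7 red blood cell markers summed to 68 to 153 FPKM in WT and 6.52 to 15.8 FPKM in β8ITGcKO at 0 h, and to 36 to 220 and 87.4 to 195 FPKM at 24 h. The 10 macrophage markers summed to 9.44 to 18.7 FPKM in the 0 h libraries and 35 to 54.2 FPKM in the 24 h libraries. The part of these cells in the results that follow was not tested.

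Over the first 24 h PCS, 9 of the 10 genes changed in WT LCs, and 8 of the 10 in β8ITGcKO LCs. Fgf2, Fgfr1, Spry2, Spry4 and Dusp6 rose and Fgf1, Fgfr2 and Fgfr3 fell in both genotypes, Spry1 rose in WT LCs, and Etv5 did not pass the test in either. A gene passed when limma's adjusted p on log2(FPKM + 1) was at most 0.05, the Benjamini-Hochberg adjustment covering all genes tested. In WT LCs, 6 of 10 genes were higher at 24 h, where 20.9% of all 15146 genes tested were higher, and 3 of 10 were lower, where 8.81% of all genes were. In β8ITGcKO LCs, 5 of 10 were higher, where 35.4% of all 15237 genes tested were, and 3 of 10 lower, where 10.7% were. The 0 h and 24 h libraries did not overlap for 9 of the 10 genes in WT, beside 46.9% of all genes, and for 8 of the 10 in β8ITGcKO, beside 56.9%. Under the stricter criteria of the study (beside the adjusted p, more than 2-fold and more than 2 FPKM between the means, with 2 FPKM or more in either), 7 of the 10 were called in WT, beside 14.3% of all genes, and 6 of the 10 in β8ITGcKO, beside 15.1%. The median change of all genes was 0.16 in WT and 0.23 in β8ITGcKO LCs on this log2 scale, and the rises of the members named here lay above it.

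**Figure D1:**
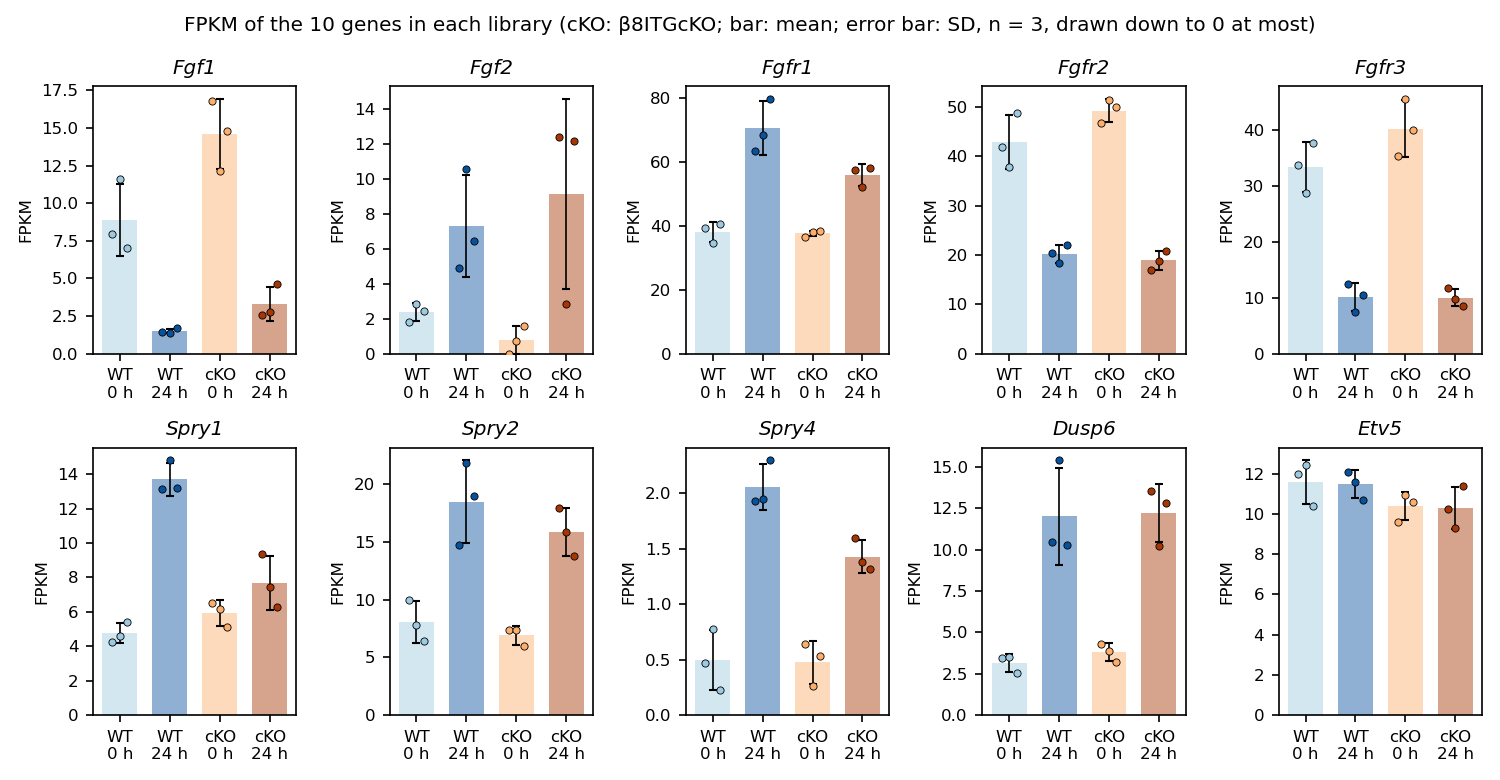
FPKM (vertical axis, linear, from 0) of the 10 genes in each of the 12 libraries, by group; points are libraries, bars means and error bars the SD over 3 libraries. Fgf1, Fgfr2 and Fgfr3 are lower at 24 h in both genotypes, Spry1 rises to 13.16 FPKM or more in WT only at 24 h and stays at 9.37 FPKM or less in β8ITGcKO, and Etv5 stays between 9.29 and 12.43 FPKM throughout.

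The ligand genes moved in opposite directions. Fgf1 encodes acidic FGF, which binds every FGF receptor. Its FPKM was 7.97, 11.62 and 7.04 in the WT libraries at 0 h and 1.43, 1.38 and 1.67 at 24 h. In β8ITGcKO libraries it was 16.81, 12.14 and 14.79 FPKM at 0 h and 2.54, 2.75 and 4.61 FPKM at 24 h. Every 24 h library lay below every 0 h library of its genotype. The mean fell 5.95-fold in WT, from 8.88 ± 2.42 to 1.49 ± 0.156 FPKM (SD, n = 3), a log2 change of -1.96 (SE 0.20, limma adjusted p = 0.000734). It fell 4.41-fold in β8ITGcKO, from 14.6 ± 2.34 to 3.3 ± 1.14 FPKM (log2 change -1.88, SE 0.20, limma adjusted p = 0.000248). Fgf1 stands in the study's own list of lens genes lower PCS, which was drawn up on these samples, so that list is not independent evidence of its direction. Without WT 0 h replicate 2, the library high in retinal markers and the highest of its group for Fgf1, the WT log2 change was -1.77 (limma adjusted p = 0.0027).

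Fgf2, on chromosome 3 from 37348477 to 37410106 (RefSeq, GRCm38.p6), encodes basic FGF, a ligand often used to drive lens cells in culture. It had 1.82, 2.86 and 2.44 FPKM in the WT libraries at 0 h and 4.90, 10.59 and 6.43 FPKM at 24 h. The β8ITGcKO libraries listed it at 0.00, 0.72 and 1.59 FPKM at 0 h, and 12.43, 2.85 and 12.18 FPKM were found at 24 h. Levels were higher at 24 h in every library of both genotypes, and β8ITGcKO replicate 2 was far below the others of its group at 24 h. The log2 change was 1.25 in WT (SE 0.26, limma adjusted p = 0.0109) and 2.42 in β8ITGcKO (SE 0.53, limma adjusted p = 0.00729), with a value of 0 in 1 library at 0 h that can be a failed estimate. The exons of Fgf2 overlap those of Nudt6 on the other strand, and no source states whether fragments were counted by strand, so their reads may not be told apart. Nudt6 itself had 0.72 to 2.36 FPKM in WT and 2.16 to 3.93 FPKM in β8ITGcKO at 0 h, and 4.27 to 6.96 and 5.04 to 8.18 FPKM at 24 h.

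Of the summed FPKM of both ligands, Fgf1 held 78.6% ± 3.86 in WT at 0 h and 18.2% ± 5.92 at 24 h (SD, n = 3). In β8ITGcKO it held 94.9% ± 4.87 at 0 h and 31.2% ± 16.4 at 24 h. The order of the ligands thus turned between 0 h and 24 h in all 3 WT libraries, and in β8ITGcKO replicate 2 at 24 h the shares were close, with 49.1% for Fgf1. The summed FPKM of both was 11.3 ± 2.8 and 8.8 ± 2.88 in WT and 15.3 ± 2.17 and 12.5 ± 6 in β8ITGcKO at 0 h and 24 h, with overlapping libraries in each genotype.

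Among the receptor genes, Fgfr1 rose while Fgfr2 and Fgfr3 fell. Fgfr1, on chromosome 8 from 25518759 to 25575718, had 39.20, 34.46 and 40.50 FPKM in WT at 0 h and 63.30, 68.41 and 79.79 FPKM at 24 h. In β8ITGcKO it had 36.62, 37.91 and 38.32 FPKM at 0 h and 57.39, 52.05 and 58.14 FPKM at 24 h. All 24 h libraries were above all 0 h libraries, whichever the genotype. Its log2 change was 0.87 in WT (1.85-fold, SE 0.15, limma adjusted p = 0.00489) and 0.56 in β8ITGcKO (1.49-fold, SE 0.09, limma adjusted p = 0.00163), below the study's criterion of 2-fold. An antisense gene that overlaps its exons, Gm16159, had at most 1.01 FPKM in any library.

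Fgfr2, on chromosome 7 from 130162451 to 130266808, had 41.90, 37.85 and 48.81 FPKM in WT at 0 h and 20.41, 18.35 and 21.97 FPKM at 24 h. The β8ITGcKO libraries had 46.68, 51.36 and 49.95 FPKM at 0 h and 16.96, 18.87 and 20.87 FPKM at 24 h. Mouse lens needs its FGF receptors for fiber cell differentiation and survival, and Fgfr2 was at 21.97 FPKM or less in all 6 libraries at 24 h. The fall was 2.12-fold in WT (log2 change -1.04, SE 0.15, limma adjusted p = 0.00266) and 2.61-fold in β8ITGcKO (log2 change -1.34, SE 0.10, limma adjusted p = 5.83e-05).

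Fgfr3, on chromosome 5 from 33721724 to 33737068, had 33.61, 28.64 and 37.56 FPKM in WT at 0 h and 12.51, 7.38 and 10.44 FPKM at 24 h. It had 35.21, 45.53 and 39.91 FPKM in β8ITGcKO at 0 h and 11.64, 9.75 and 8.56 FPKM at 24 h. The drop was the steepest of the 3 receptors in both genotypes, at 3.29-fold in WT (log2 change -1.64, SE 0.20, limma adjusted p = 0.00154) and 4.03-fold in β8ITGcKO (log2 change -1.91, SE 0.14, limma adjusted p = 4.81e-05). In bulk RNA, fewer cells of a type and less RNA per cell cannot be told apart, which holds for every fall here. The fiber cell markers fell in the same libraries.

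At 0 h the 3 receptor genes had like shares of the summed FPKM of Fgfr1 to Fgfr4, a unit that allows for gene length. In WT, Fgfr1 held 33.4% ± 1.29, Fgfr2 37.5% ± 0.974 and Fgfr3 29.1% ± 0.637 (SD, n = 3), and in β8ITGcKO 29.6% ± 1.38, 38.8% ± 0.629 and 31.5% ± 2.08. By 24 h Fgfr1 held 69.8% ± 3.68 in WT and 65.8% ± 1.17 in β8ITGcKO, with Fgfr2 at 20.1% ± 0.945 and 22.3% ± 2.24 and Fgfr3 at 10% ± 2.64 and 11.8% ± 1.9. No library at 24 h had a Fgfr1 share under 64.4%, and none at 0 h had one over 34.1%. Fgfr4 held at most 0.311% in any library. The summed FPKM of the 4 receptor genes was 114 ± 13 and 101 ± 9.83 in WT and 127 ± 8.12 and 84.9 ± 3.69 in β8ITGcKO at 0 h and 24 h, so the groups overlapped in WT and did not in β8ITGcKO. With 3 libraries a group, an exact two-sided permutation test of a share cannot give a p below 0.1, and none was run.

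**Figure D2:**
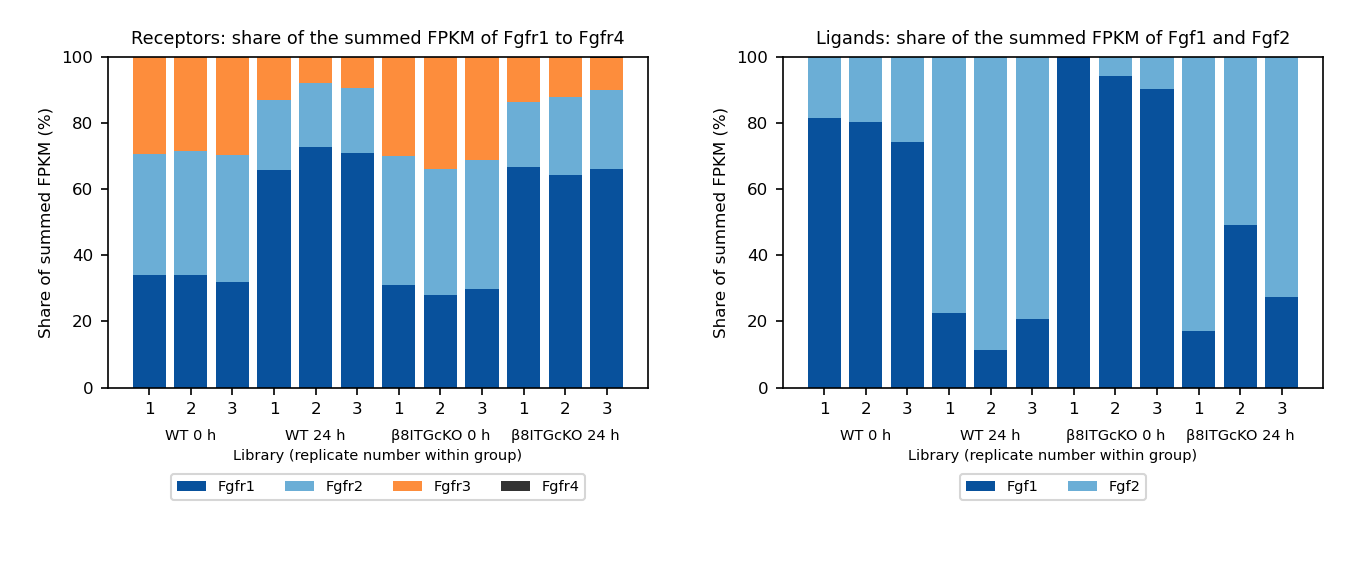
Shares (%) of the summed FPKM of Fgfr1 to Fgfr4 (left) and of Fgf1 and Fgf2 (right) in each library, stacked to 100% and grouped by genotype and time. The Fgfr1 share is 28.1% to 34.1% in the 0 h libraries and 64.4% to 72.7% in the 24 h libraries, and the Fgf1 share is 74.2% or more at 0 h and 49.1% or less at 24 h.

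All 4 feedback inhibitor genes rose in WT LCs. Sprouty proteins are induced by receptor tyrosine kinase signaling and dampen the Ras and ERK relay. Spry1, on chromosome 3 from 37639947 to 37644599, had 4.27, 4.62 and 5.40 FPKM in WT at 0 h and 13.16, 14.82 and 13.22 FPKM at 24 h, a 2.88-fold rise (log2 change 1.36, SE 0.14, limma adjusted p = 0.000814). In β8ITGcKO it had 6.53, 6.18 and 5.11 FPKM at 0 h and 9.37, 7.44 and 6.26 FPKM at 24 h. Replicate 3 at 24 h lay within the range of the 0 h libraries, and the log2 difference of 0.32 (SE 0.15, 95% interval -0.04 to 0.67) did not pass (limma adjusted p = 0.132).

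Spry2, on chromosome 14 from 105891947 to 105896819, had 10, 7.78 and 6.40 FPKM in WT at 0 h and 14.74, 21.88 and 18.99 FPKM at 24 h. In β8ITGcKO its FPKM was 7.40, 7.36 and 5.96 at 0 h and 17.91, 15.91 and 13.76 at 24 h. Both rises were 2.3-fold, with log2 changes of 1.11 (SE 0.20, limma adjusted p = 0.00669) and 1.09 (SE 0.13, limma adjusted p = 0.000442).

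Spry4, another Sprouty gene, was low in every group. The WT libraries held 0.47, 0.78 and 0.23 FPKM at 0 h and 1.93, 1.95 and 2.30 FPKM at 24 h, and the β8ITGcKO libraries 0.64, 0.26 and 0.53 FPKM and 1.60, 1.38 and 1.32 FPKM. Groups did not overlap in either genotype, and the log2 changes were 1.05 (SE 0.19, limma adjusted p = 0.00675) and 0.73 (SE 0.15, limma adjusted p = 0.00556), which the pseudocount of 1 FPKM makes smaller than the 4.16-fold and 2.99-fold ratios of the means.

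Dusp6, on chromosome 10 from 99263231 to 99267489, encodes a phosphatase that removes phosphate from ERK. It had 3.43, 3.51 and 2.54 FPKM in WT at 0 h and 10.43, 15.40 and 10.30 FPKM at 24 h, and 4.30, 3.88 and 3.20 FPKM against 13.57, 10.24 and 12.81 FPKM in β8ITGcKO. The genotypes overlapped at 24 h. Dusp6 rose 3.81-fold in WT (log2 change 1.64, SE 0.20, limma adjusted p = 0.0014) and 3.22-fold in β8ITGcKO (log2 change 1.46, SE 0.14, limma adjusted p = 0.000167), the largest of the 4 feedback inhibitors on the log2(FPKM + 1) scale in both, though not by the ratio of the WT means, which was larger for Spry4.

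Etv5, on chromosome 16 from 22381313 to 22439570, is a gene switched on by FGF signaling in many embryonic tissues. Its FPKM was 12.01, 12.43 and 10.39 in WT at 0 h, 12.07, 11.62 and 10.69 in WT at 24 h, 9.59, 10.96 and 10.58 in β8ITGcKO at 0 h and 10.25, 9.29 and 11.39 in β8ITGcKO at 24 h. All 4 groups overlapped. The log2 changes over time were -0.02 (95% interval -0.33 to 0.30, limma adjusted p = 0.944) in WT and -0.01 (95% interval -0.26 to 0.24, limma adjusted p = 0.942) in β8ITGcKO. Etv4, a close relative of Etv5 that is no member, had 0.44, 1.10 and 0.74 FPKM in WT at 0 h and 3.96, 4.75 and 3.53 FPKM at 24 h, a log2 change of 1.54 (SE 0.20, limma adjusted p = 0.00182). In β8ITGcKO it went from 0.865 ± 0.227 to 3.45 ± 0.567 FPKM (SD, n = 3), a log2 change of 1.25 (SE 0.15, limma adjusted p = 0.000524).

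**Figure D3:**
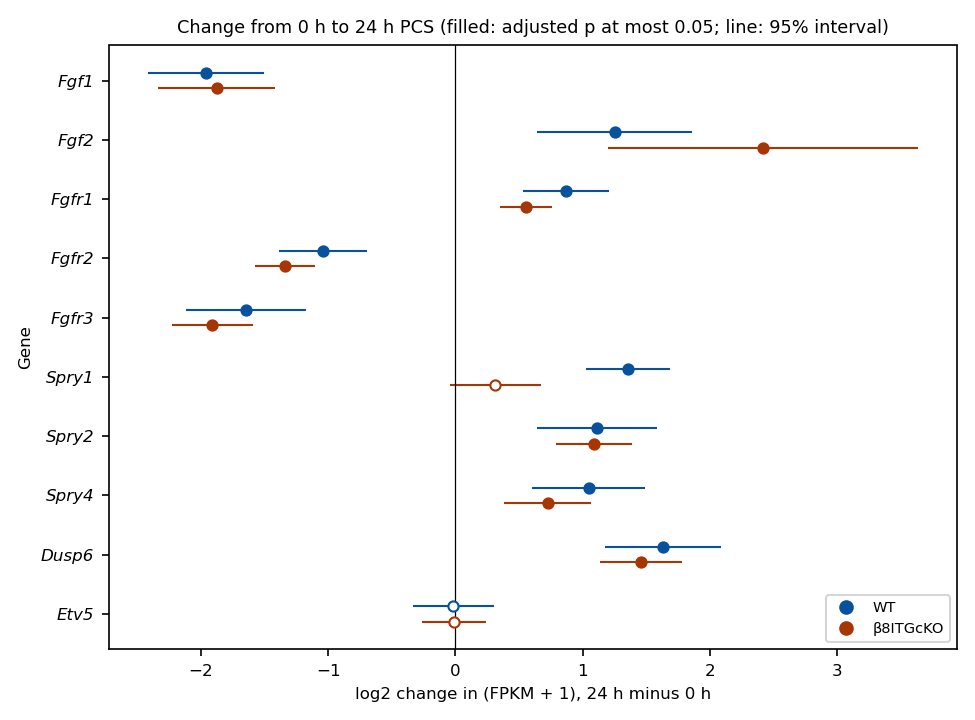
Change from 0 h to 24 h PCS in log2(FPKM + 1) for the 10 genes in WT (blue) and β8ITGcKO (brown) LCs; lines are 95% intervals and filled points have an adjusted p of at most 0.05. Apart from Spry1, filled in WT at 1.36 and open in β8ITGcKO at 0.32, and Etv5, open in both, the points of both genotypes are filled and on the same side of 0.

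Between genotypes, Spry1 was the 1 gene of the 10 that passed the test, and it did so at 24 h. At 0 h, none of the 9 tested genes passed in either direction by limma (4.18% of all 14708 genes were higher and 2.75% lower in β8ITGcKO), 0 met the study's criteria (2.52% of all genes), and 2 did not overlap (30.8% of all genes). Fgf1 and Fgf2 were these 2 genes, and both had an unadjusted p under 0.05. Spry4 was left out of the test at 0 h because its mean over the 6 libraries was under 0.5 FPKM. Fgf1 was 1.64-fold higher in β8ITGcKO at 0 h, with its lowest library at 12.14 FPKM and the highest WT library at 11.62 FPKM, a log2 difference of 0.67 (SE 0.19, 95% interval 0.23 to 1.11) that did not pass (limma adjusted p = 0.0769). Without WT 0 h replicate 2 the difference was 0.86 (limma adjusted p = 0.0297), so that library decides the call, and over the libraries left out in turn the adjusted p ran from 0.0297 to 0.218. The log2 difference of Fgf2 at 0 h was -1.02 (SE 0.33, 95% interval -1.78 to -0.27, limma adjusted p = 0.104). The other 7 had log2 differences between -0.18 and 0.27.

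At 24 h, 1 of the 10 genes, Spry1, passed as lower in β8ITGcKO, where 0.644% of all 15366 genes tested were lower, and 0 passed as higher, where 5.64% of all genes were and Fgf1 had an unadjusted p under 0.05 by limma. None met the study's criteria (3.66% of all genes). Libraries of the genotypes did not overlap for 4 of the 10 (Fgf1, Fgfr1, Spry1 and Spry4), beside 26.5% of all genes. Spry1 was 1.79-fold lower, with 13.16 to 14.82 FPKM in WT and 6.26 to 9.37 FPKM in β8ITGcKO, a log2 difference of -0.78 (SE 0.16, 95% interval -1.15 to -0.40, limma adjusted p = 0.0318). This call was lost with WT replicate 1 (adjusted p = 0.0647), WT replicate 2 (0.0919), β8ITGcKO replicate 2 (0.131) or β8ITGcKO replicate 3 (0.111) left out of limma's fit, and over the 6 libraries left out in turn the log2 difference ran from -0.91 to -0.65. It was also lost with no filter on low values (limma adjusted p = 0.0618), with libraries rescaled to the same sum without the 100 highest genes (0.0563) and with the replicate number as a block (0.078). Fgf1 was 2.21-fold higher in β8ITGcKO (log2 difference 0.76, SE 0.20, limma adjusted p = 0.0776), Fgfr1 was at 0.792 times its WT mean (log2 difference -0.33, SE 0.14, limma adjusted p = 0.240) and Spry4 at 0.695 times (log2 difference -0.33, SE 0.14, limma adjusted p = 0.247), and none of these 3 passed. For Fgfr2, Fgfr3, Dusp6 and Etv5 the log2 differences lay between -0.14 and 0.03, with 95% intervals within -0.47 to 0.48. Spry2 differed by -0.20 (95% interval -0.61 to 0.21) and Fgf2 by 0.14 (95% interval -1.02 to 1.30). The 3 β8ITGcKO libraries at 24 h all held high retinal marker sums.

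Whether the change over time differed was tested with a genotype by time interaction term, fitted to all 12 libraries. Only Spry1 of the 10 passed, with a change smaller in β8ITGcKO by 1.04 on the log2 scale (SE 0.21, 95% interval of the interaction -1.49 to -0.59, limma adjusted p = 0.0119). The interaction was negative and past the threshold for 2.56% of all 15262 genes tested, and positive for 6.83%, against 1 and 0 of the 10 genes. It passed whichever of the 12 libraries was left out (limma adjusted p = 0.00864 to 0.0364, log2 -1.18 to -0.92). Spry2 and Dusp6 gave interactions of -0.02 (95% interval -0.57 to 0.53) and -0.18 (95% interval -0.71 to 0.36), and Spry4 one of -0.32 (95% interval -0.83 to 0.18), none past the threshold. The widest interval belonged to Fgf2, at 1.17 (95% interval -0.28 to 2.61, limma adjusted p = 0.314). For the 3 receptors the interaction was -0.31 to -0.27, with limma adjusted p of 0.256 to 0.576, and for Fgf1 it was 0.08 (95% interval -0.55 to 0.72). The comparisons over time and between genotypes share libraries, so their values are not independent of each other.

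**Figure D4:**
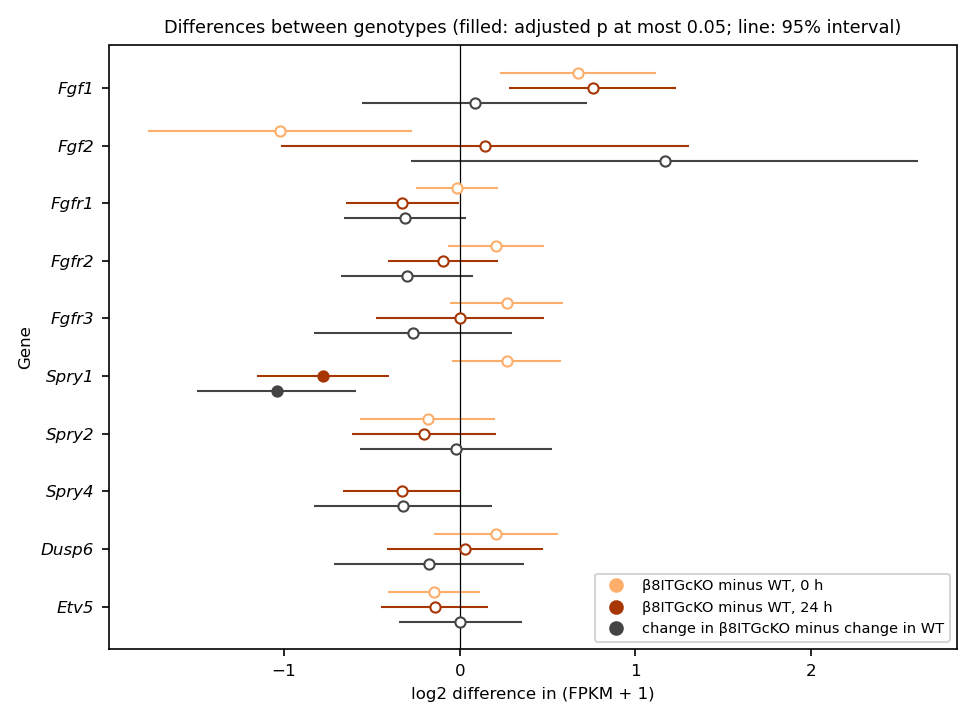
Differences between β8ITGcKO and WT in log2(FPKM + 1) at 0 h (light) and 24 h (brown), and the difference between their changes over time (grey), for the 10 genes; lines are 95% intervals and filled points have an adjusted p of at most 0.05. Spry1 alone is filled, at -0.78 for 24 h and -1.04 for the interaction, and Spry4 has no point at 0 h because it was not tested there.

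The rest of the pathway was read from 6 lists of other genes. Among 22 genes of other FGF family members and FGF binding proteins, 7 had enough signal to be tested in WT over time. At 24 h, where 20.9% of all genes were higher and 8.81% lower, 0 of the 7 were higher and 2 lower. These were Fgf12 (log2 change -1.33, limma adjusted p = 0.026) and Fgf11 (-0.82, 0.0122), which encode intracellular FGF homologs that are not secreted. Of 6 tested in β8ITGcKO, only Fgf9, a secreted ligand, passed, and rose from 0.324 ± 0.063 to 0.957 ± 0.0584 FPKM (SD, n = 3). No secreted ligand gene other than Fgf1 and Fgf2 passed in WT.

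Coreceptor and heparan sulfate genes moved in both directions. Of 12 other receptor and coreceptor genes tested, 4 were higher and 2 lower in WT, and 4 higher and 3 lower in β8ITGcKO, with median log2 changes of -0.03 and -0.11. Of all genes, 20.9% were higher and 8.81% lower in WT, and 35.4% and 10.7% in β8ITGcKO. Gpc1, which encodes the heparan sulfate proteoglycan glypican 1, rose from 11.2 ± 1.38 to 66.4 ± 4.98 FPKM in WT and from 13.8 ± 2.07 to 61.3 ± 0.241 FPKM in β8ITGcKO (SD, n = 3), with log2 changes of 2.47 and 2.08 (limma adjusted p = 8.29e-05 and 1.59e-05). Of the 4 syndecan genes, Sdc3 rose in WT and β8ITGcKO (log2 changes 1.24 and 0.57, limma adjusted p = 0.00399 and 0.011), as did Sdc4 (1.18 and 1.45, limma adjusted p = 0.00238 and 4.7e-05). Sdc2 fell in both (-0.50 and -0.91, limma adjusted p = 0.0273 and 0.000133), and Sdc1 rose in WT (0.64, limma adjusted p = 0.0223) but not past the threshold in β8ITGcKO (-0.09, limma adjusted p = 0.518). Of 13 heparan sulfate genes, 4 were higher and 0 lower in WT, and 4 higher and 4 lower in β8ITGcKO. In β8ITGcKO the share of higher genes was below that of all genes, and the share of lower genes was above it. Sulf2, which removes sulfate groups from heparan sulfate outside the cell, rose from 1.18 ± 0.562 to 8.22 ± 2.31 FPKM in WT and from 1.17 ± 0.118 to 8.93 ± 0.851 FPKM in β8ITGcKO (SD, n = 3).

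Of the 21 adaptor and Ras-ERK relay genes, 5 were higher and 1 lower in WT, where 20.9% and 8.81% of all genes were. In β8ITGcKO 3 were higher and 2 lower, where 35.4% and 10.7% of all genes were. The median log2 changes were 0.08 in WT and 0.09 in β8ITGcKO, both below the medians of all genes (0.16 and 0.23). Map2k1, the gene for the ERK kinase MEK1, rose in both (log2 changes 0.88 and 0.56, limma adjusted p = 0.00641 and 0.00834), as did Nras (0.65 and 0.49, limma adjusted p = 0.0123 and 0.0181). Between genotypes, 0 of 21 passed limma's test at either time, with 1 at 0 h and 2 at 24 h at an unadjusted p under 0.05. Of all genes, 4.18% were higher and 2.75% lower in β8ITGcKO at 0 h, and 5.64% and 0.644% at 24 h.

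Some of the other feedback inhibitor genes rose. Of 18 tested, 8 were higher, 0 lower and 10 not past the threshold in WT, with a median log2 change of 0.36. In β8ITGcKO 11 were higher, 1 lower and 6 not past the threshold, with a median of 0.68. Of all genes, 20.9% were higher and 8.81% lower in WT, and 35.4% and 10.7% in β8ITGcKO. Dusp5, which encodes a nuclear ERK phosphatase, had 38.16, 14.53 and 20.64 FPKM in WT at 0 h and 69.49, 118.49 and 60.43 FPKM at 24 h. In β8ITGcKO it had 1.63, 1.99 and 1.29 FPKM at 0 h and 57.79, 40.99 and 57.36 FPKM at 24 h. The 0 h groups of Dusp5 were thus far apart, with a log2 difference of -3.17 (SE 0.31, limma adjusted p = 0.00269), where Dusp6 differed by 0.21 (SE 0.15, limma adjusted p = 0.445). In all, 6 of 19 genes listed as other feedback inhibitors were lower in β8ITGcKO at 0 h and 0 higher, where 2.75% of all genes were lower and 4.18% higher. Among the 6 were also Dusp10 (log2 difference -1.64), Dusp4 (-1.41) and Dusp16 (-0.97), which encode phosphatases of the same family, with Errfi1 (-0.99) and Spred2 (-0.50). Not every gene of this list need be a feedback inhibitor of FGF or ERK signaling. Whether each listed gene acts on ERK in these cells was not tested.

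Other ERK target genes had the largest median rises of the 6 lists in both genotypes. Of 20 tested, 10 were higher in WT, with a median log2 change of 1.36, and 18 in β8ITGcKO, with a median of 2.13, and 0 were lower. Of all genes, 20.9% were higher and 8.81% lower in WT, and 35.4% and 10.7% in β8ITGcKO. Plaur, the gene for the urokinase receptor, had at most 0.46 FPKM in any 0 h library and 16.72 to 69.72 FPKM in WT and 24.42 to 30.52 FPKM in β8ITGcKO libraries at 24 h. Ier3 and Phlda1, both induced early by growth factors, had log2 changes of 3.05 and 3.04 in WT (limma adjusted p = 0.00093 and 0.00221). At 0 h, 8 of 16 tested were lower in β8ITGcKO and 0 higher, with a median log2 difference of -1.05 (0.02 over all genes). Of all genes, 2.75% were lower and 4.18% higher there. Fos, an immediate-early gene, had 83.61, 29.60 and 14.02 FPKM in WT at 0 h and 1.08, 1.09 and 1.37 FPKM in β8ITGcKO. Egr1 had 61.95, 42.37 and 8.96 against 3.15, 2.78 and 2.93 FPKM. The WT 0 h libraries thus differed several-fold among themselves in these genes, while the β8ITGcKO 0 h libraries were low and close together. The summed FPKM of the red blood cell markers was also lower in all 3 β8ITGcKO than in all 3 WT libraries of 0 h. That of the corneal epithelium markers was higher in the same libraries, but single markers went both ways. Aldh3a1 was higher (log2 difference 1.58, limma adjusted p = 0.00801) and Dsg1a lower (-0.86, limma adjusted p = 0.0285). Of 9 corneal epithelium markers, 2 had a mean of at least 1 FPKM in β8ITGcKO, against 4 in WT. The part of these cells in these differences was not tested. At 24 h, 0 of the 20 differed between genotypes by limma's adjusted p, and 1 had an unadjusted p under 0.05. Of all genes, 5.64% were higher and 0.644% lower in β8ITGcKO at 24 h.

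**Figure D5:**
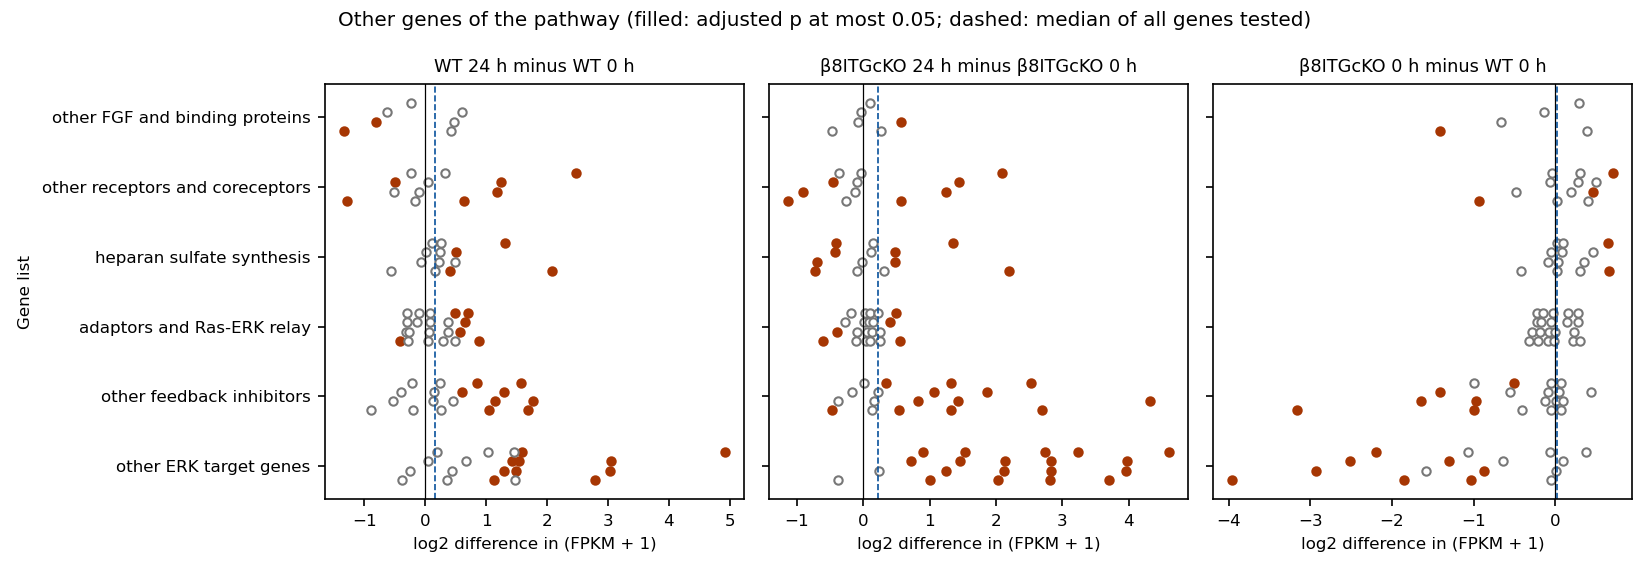
Log2 differences in (FPKM + 1) of the tested genes of 6 lists, for 24 h minus 0 h in WT (left) and β8ITGcKO (middle) and for β8ITGcKO minus WT at 0 h (right); each point is a gene, filled where the adjusted p is at most 0.05, and the dashed line is the median of all genes tested. ERK target genes and feedback inhibitors lie mostly to the right over time, with medians of 1.36 and 0.36 in WT and 2.13 and 0.68 in β8ITGcKO, and to the left between genotypes at 0 h, with medians of -1.05 and -0.12.

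Genes of like pattern were sought among 10880 genes by the root mean square (RMS) of the difference between log2(FPKM + 1) values, each gene centred on its own mean over the 12 libraries. Closest to Fgfr1 was Map4k4, at an RMS difference of 0.095, where Fgfr1 itself varied by 0.386 about its mean. Closest to Fgfr2 was Slc7a2 (0.104, Fgfr2 varying by 0.611) and to Fgfr3 was Gja3 (0.17, Fgfr3 varying by 0.915), a fiber cell connexin gene that is on the fiber marker list. Fgf1 was nearest to Lrtm2 (0.2, with 1.05 for Fgf1 itself). Dusp6 was nearest to Clic1 (0.179), Pdlim4 (0.188) and Etv4 (0.189), with 0.798 for Dusp6 itself. Spry1 was nearest to Stat5a (0.166), Nabp1 (0.175) and Ahnak (0.191), with 0.528 for Spry1 itself, while Spry2 was nearest to Nav1 (0.15) and Spry4 to Nin (0.122). Fgf2 had no gene as close, its nearest being Dusp4 at 0.507 beside 1.13 for Fgf2 itself. These are descriptions over 12 libraries that share their groups.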

How the data were processed

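RNA of lens capsules with attached LCs was sequenced in 12 libraries after a stranded total RNA preparation. The authors deposited 4 tables, 1 per pair of groups, with the FPKM of each gene in each library. The submitters' processing notes name FastQC, cutadapt 1.12, TopHat2 2.1.0, Cuffdiff 2.2.1 and the builds mm10 and GRCm38.p5, and the study's methods state that read pairs were turned into FPKM by Cuffdiff. FPKM of a library were the same in every table that held it (largest difference 0). Cuffdiff also gave group values, fold changes, p and q values, and these, with 16 columns of group values, were not used. Read counts were not used here, so depth is known only relatively, from the steps between low FPKM.

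For each pair of groups, log2(FPKM + 1) was modelled in R 4.3.3 by limma 3.58.1 (eBayes with trend). Genes whose FPKM averaged 0.5 or more across the 6 libraries entered, and Benjamini-Hochberg adjustment covered all of them. The interaction used all 12 libraries. The fit was tested on simulated data with known changes. Libraries are called biological replicates in the methods, and p-values measure the spread between these pools. Other processing used Python 3.11.15, pandas 2.3.3, numpy 2.4.6 and matplotlib 3.10.9. In the files, 92.5% of 45842 symbols were in RefSeq's table, and 99.5% of those positions overlapped. Promoter sequences are RefSeq's, and sequences of 3 of the 10 genes and of proteins were not used here.

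The 10 genes and all lists were chosen with earlier results of these data known. Genes named beyond the 10 were drawn from the up to 3 genes per list and comparison with the largest changes past the threshold. Not all of these were named. Left out were, among others, Flrt1 (lower at 24 h in WT) and Ugdh, Dusp7 and Spred3 (higher at 24 h in both genotypes). Between genotypes, Fgf12 (lower in β8ITGcKO at 0 h) and Fgf11 and Dusp8 (higher in β8ITGcKO at 24 h) were left out. Also named were Sdc2, given beside the other syndecan genes, genes nearest in profile, overlapping genes and markers. Etv4 was one of the nearest and was also compared with Etv5 after its values were seen. Lists of iris and ciliary pigment cells and of corneal stroma were read too, with sums of 23.3 to 112 and 548 to 1157 FPKM per library.

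Alternatives were pseudocounts of 0.5 and 0.1, no filter or a mean of at least 2 FPKM, rescaling to the same median or to the same sum without the 100 highest genes, the study's criteria, 1 fit over 12 libraries, the replicate block, eBayes without trend and each library left out.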

Additional observations from a re-analysis of the deposited data

Results flagged for a closer look

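The change from 0 h to 24 h PCS differed between genotypes, by limma's interaction test over 12 libraries, for 1 of the 10 genes and for the 9 other genes of the pathway named by their size. Spry1 gave -1.04 on the log2 scale (SE 0.21, limma adjusted p = 0.0119), since it rose in WT and not past the threshold in β8ITGcKO. Sdc1, a syndecan gene, gave -0.73 (limma adjusted p = 0.0338), with means of 12.5 and 20.3 FPKM at 0 h and 24 h in WT and 17.7 and 16.6 FPKM in β8ITGcKO. Glce, a heparan sulfate epimerase gene, gave -0.92 (limma adjusted p = 0.00744), with means of 9.78 and 14.3 FPKM in WT and 16.1 and 11.8 FPKM in β8ITGcKO.

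Flrt3, which encodes a membrane partner of FGF receptors, gave 0.93 (limma adjusted p = 0.0252). The phosphatase genes Dusp5, Dusp8 and Dusp4 gave 2.56, 2.22 and 1.68 (limma adjusted p = 0.00798, 0.00616 and 0.00733), and the AP-1 genes Fos, Junb and Fosl1 gave 3.49, 2.53 and 1.71 (limma adjusted p = 0.0278, 0.0118 and 0.0221). For Flrt3, Dusp5, Dusp4, Fos, Junb and Fosl1, the WT 0 h libraries were all above the β8ITGcKO 0 h libraries, while at 24 h their means were closer, those of Fos (34.5 and 19.6 FPKM) being the furthest apart in ratio. Dusp8 differed in that its mean fell from 5.25 to 2.31 FPKM in WT and rose from 3.1 to 9.33 FPKM in β8ITGcKO. The retinal marker sums were 1178 to 1460 FPKM in the β8ITGcKO 24 h libraries and 1626 FPKM in WT 0 h replicate 2, against 556 FPKM or less in the other 8, and their part in these values was not tested.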

How the results depend on the processing

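Of 780 results for the 10 genes under an alternative setting or with a library left out, 733 kept their direction and side of the threshold, 7 lost the threshold, 3 gained it and 37 changed sign, all 37 for values that were not past it. The 9 and 8 calls over time held under every setting except the study's criteria (7 and 6), which add a fold change and a level, and a mean of at least 2 FPKM, which leaves Spry4 untested. All 7 losses were of Spry1 at 24 h, with limma adjusted p of 0.0618 with no filter on low values, 0.0563 with the same sum, 0.078 with the replicate block and up to 0.131 with a library left out. Gains were of Fgf1, at 0 h after rescaling to the same median (adjusted p = 0.0421) or without WT 0 h replicate 2, and at 24 h in 1 fit over 12 libraries (adjusted p = 0.0368). Members past the threshold at 0 h were therefore 1 after rescaling to the same median and 0 to 1 with a library left out. At 24 h they were 0 with no filter, after rescaling to the same sum, with the study's criteria or with the replicate block. They were 2 in 1 fit over 12 libraries, and 0 to 1 with a library left out.

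Over all genes, the 4500 calls in WT over time became 2159 and the 7030 in β8ITGcKO 2294 under the study's criteria. At 0 h the 1020 between genotypes became 254 with no filter, 371 with the criteria and 269 with the replicate block. At 24 h the 966 became 574 with a mean of at least 2 FPKM, 562 with the criteria and 1642 in 1 fit, and the 1433 interactions became 930 with a mean of at least 2 FPKM. With a library left out, they ran from 2512 to 5087 in WT over time, from 136 to 756 at 0 h, from 439 to 1108 at 24 h and from 688 to 1921 for the interaction. The cause was not tested.

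Signs turned, never past the threshold, after rescaling to the same median for Fgfr3 (-0.060) and Dusp6 (-0.030) at 24 h and for the interaction of Etv5 (-0.026). With a library left out, Etv5 ran from -0.087 to 0.032 over time in WT, -0.079 to 0.055 in β8ITGcKO and -0.064 to 0.076 as an interaction, and the interactions of Dusp6, Fgf1 and Spry2 from -0.27 to 0.0012, -0.12 to 0.22 and -0.17 to 0.12. Fgfr1 at 0 h ran from -0.081 to 0.032, and at 24 h Dusp6 from -0.061 to 0.21, Fgf2 from -0.16 to 0.74 and Fgfr3 from -0.19 to 0.16.

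Libraries with the same replicate number in the labels did not deviate together (correlations of -0.249 to 0.096), so the numbers were not taken as pairs, and the replicate block gave 4304, 6362, 269, 644 and 1024 calls over all genes in WT and β8ITGcKO over time, at 0 h, at 24 h and for the interaction. The median change of all genes, 0.16 in WT and 0.23 in β8ITGcKO, was -0.05 and 0 after rescaling to the same median and -0.07 and 0.11 after rescaling to the same sum. With 3 libraries a group and no read counts, the precision of low values cannot be given from counting, and Fgf2 had the largest SE of the 10 genes in every comparison.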
